A study of Mus musculus with 23 samples.

Results

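The comparison described here was between Bmal1-/- and wild-type (WT) β-TC6 cells, a mouse insulinoma line that keeps many properties of the pancreatic β cell, and it covered 6 of the 23 samples of the series. Its members were chosen by genotype label, with 3 RNA-seq libraries of each genotype. The Bmal1-/- line carried a deletion of exon 8 of Bmal1 made by CRISPR-Cas9, and the WT libraries came from the parental cells. A Clock-/- line from the same parental cells gave 3 further RNA-seq libraries, which share the WT libraries as controls and entered the same fit. It carried a deletion of exons 6 and 7 of Clock and came from a single colony selected under puromycin. The Bmal1-/- line was grown from a single selected colony under G418, so the 3 Bmal1-/- libraries belong to 1 clone. What is particular to that clone and what follows from the deletion cannot be told apart, and p-values measure the spread between the libraries of a genotype. Differences between the knockouts likewise compare 1 clone with another that was selected with a different drug.

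BMAL1 is the bHLH-PAS partner of CLOCK, and the CLOCK:BMAL1 dimer binds E-box sequences and drives transcription of its own repressors. The PER and CRY proteins inhibit the dimer, and the REV-ERB and ROR receptors act on the Bmal1 promoter in opposite directions. In β cells the clock is known for its part in insulin secretion, and mice that lack BMAL1 in the pancreas secrete too little insulin. BMAL1 is encoded by Arntl (ENSMUSG00000055116.8) at chr7:113207465-113314126 of GRCm38, on the plus strand. Exon 8 is shown because the genotype is described as its deletion. Exon 8 of transcript Arntl-201, which has 20 exons, lies at chr7:113284999-113285156, plus strand, and its 158 bases are not a multiple of 3. The capitals mark the 2 stretches to which a primer pair of the study matches. That pair is named for exons 7 to 9, yet both primers match inside exon 8 of this transcript, so the exon numbers of the study may follow another transcript, and whether this is the deleted exon was not tested.
Arntl exon 8: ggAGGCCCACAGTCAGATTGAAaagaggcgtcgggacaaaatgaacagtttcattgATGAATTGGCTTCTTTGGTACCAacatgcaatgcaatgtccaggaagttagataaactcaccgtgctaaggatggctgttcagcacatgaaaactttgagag

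The unit of every level below is TPM, transcripts per 1000000, which is normalised for transcript length and for the total of the library. Over the whole gene, Arntl stood at 3.63, 3.52 and 4.22 TPM in WT and at 3.52, 3.32 and 3.41 TPM in Bmal1-/- libraries. The 2 ranges touch, and the log2 fold change on the log2(TPM + 1) scale was -0.11 ± 0.15 (SE, limma adjusted p = 0.539). A gene-level TPM does not show the loss of a single exon, so this value does not check the genotype label. In Clock-/- libraries Arntl stood at 13.2, 10.6 and 16.2 TPM.

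The libraries grouped by genotype. Pearson's r between libraries over the genes tested was 0.988 to 0.993 within WT or Bmal1-/- and 0.938 to 0.943 between them. β-cell markers were abundant in every library, with a summed level of 55914 to 58319 TPM in WT and 40472 to 43095 TPM in Bmal1-/- libraries over all 11 markers. Marker sums of acinar, duct, endothelial and immune cells were low and lay lower in every Bmal1-/- than in every WT library, and those of α cells were abundant. The 4 acinar markers in the table summed to 8.86 to 9.67 TPM in WT and to 1.37 to 3.23 TPM in Bmal1-/- libraries, and the other 4 of that list were not listed. The 5 duct markers in the table summed to 18.8 to 22.0 TPM in WT and to 3.52 to 4.22 TPM in Bmal1-/- libraries, and the 4 endothelial markers summed to 2.80 to 3.82 TPM and to 0.187 to 0.333 TPM. The 4 immune markers in the table summed to 8.78 to 9.88 TPM and to 1.31 to 1.51 TPM, most of it from Cd68. The 5 α-cell markers in the table summed to 2770 to 2864 TPM and to 1618 to 2151 TPM, most of it from Ttr. The part of these markers in the results was not tested.

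Over the 15031 genes tested, 575 genes (3.83%) were called higher and 1198 genes (7.97%) were called lower in Bmal1-/- than in WT libraries. A call needed an adjusted p under 0.01 in limma and an absolute log2 fold change above 1 on the log2(TPM + 1) scale. With no minimum fold change, 2773 genes (18.4%) rose and 3153 genes (21.0%) fell. The verbs "rose" and "fell" are used below for that test alone. In 4812 genes (32.0%) every Bmal1-/- library lay above every WT library, and in 5278 genes (35.1%) every one lay below. Groups that do not overlap, as given for single genes below, were thus common over all genes tested. Quantile normalisation moved the called genes to 710 higher and 935 lower, or 43.2% higher where the values as deposited gave 32.4%. The excess of lower calls was largest among genes below 20 TPM in the higher group. Among the 3260 genes that reached 1 to 5 TPM in that group, 95 were called higher and 410 lower. Among the 3918 genes at 5 to 20 TPM, 156 were called higher and 394 lower. The 5208 genes at 20 to 100 TPM had 225 higher and 276 lower calls, and the 2171 genes at 100 TPM or more had 99 and 118. Protein-coding genes made up 537 of the called higher and 891 of the called lower genes. Against Clock-/- libraries, 939 genes (6.25%) were called higher and 1243 genes (8.27%) lower.

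The core clock changed in both directions in Bmal1-/- cells. Cry1 and Cry2, which encode repressors of CLOCK:BMAL1, rose, Per2 and Per3 fell, and the REV-ERB gene Nr1d2 fell from a mean of 85.2 to 13 TPM. The PAR-bZIP gene Hlf and the repressor genes Nfil3 and Bhlhe41 rose to more than 2 times their WT levels. Of the 8 repressors tested 3 rose and 3 fell, and of the 13 output genes 7 rose and 2 fell. The medians of these lists were 0.02 and 0.48 on the log2 scale, where the median over all genes tested was -0.04.

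Cry1 was at 34.4, 29.8 and 26.9 TPM in WT and at 117, 125 and 123 TPM in Bmal1-/- libraries. The groups did not overlap, and its log2 fold change of 1.97 ± 0.11 (SE, limma adjusted p = 5.92e-07) was the largest rise of the repressor list. Cry1 was also higher in Bmal1-/- than in Clock-/- libraries, which held 75.4, 62.7 and 79.7 TPM (difference 0.74 ± 0.11 SE on the log2 scale, limma adjusted p = 0.000264). Its paralog Cry2 was at 12.2, 10.1 and 10.2 TPM in WT and at 24.3, 18.5 and 23 TPM in Bmal1-/- libraries, with no overlap and a log2 fold change of 0.95 ± 0.14 (SE, limma adjusted p = 0.000303). For Cry2 the difference from Clock-/- libraries of 0.27 ± 0.14 (SE, limma adjusted p = 0.123) did not pass the test.

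The 3 Period genes did not move together. Per3 was at 12.7, 12.7 and 10.9 TPM in WT and at 2.36, 2.07 and 2.81 TPM in Bmal1-/- libraries, a log2 fold change of -1.94 ± 0.16 (SE, limma adjusted p = 7.21e-06). Per2 was at 18.9, 16.6 and 17.4 TPM in WT and at 9.17, 9.57 and 9.38 TPM in Bmal1-/- libraries (log2 fold change -0.84 ± 0.14 SE, limma adjusted p = 0.000833). Every Bmal1-/- library lay below every WT library for both genes. Per2 stood at 24.7, 18.7 and 29.9 TPM in Clock-/- libraries, and its difference between the knockouts was -1.27 ± 0.14 (SE, limma adjusted p = 5.43e-05). Per1 was at 21.3, 19.8 and 18.6 TPM in WT and at 24, 22.1 and 22.5 TPM in Bmal1-/- libraries, and its log2 fold change of 0.19 ± 0.13 (SE, limma adjusted p = 0.241) did not pass. Per1 lies on chromosome 11, whose genes had a raised median, and with chromosome and GC medians subtracted its value was -0.36 (limma adjusted p = 0.0113).

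The kinase genes Csnk1d and Csnk1e, whose products phosphorylate PER proteins, took opposite directions. Csnk1d was at 108, 99.6 and 102 TPM in WT and at 160.3, 149.9 and 155 TPM in Bmal1-/- libraries (log2 fold change 0.58 ± 0.08 SE, limma adjusted p = 0.000144). That rise was lost when the medians of chromosome 11 and of its GC class were subtracted, at 0.11 (limma adjusted p = 0.11). Csnk1e fell by 0.45 ± 0.10 (SE, limma adjusted p = 0.00459) on the log2 scale, and with the same medians subtracted its value was -0.29 (limma adjusted p = 0.014). Csnk1e also did not pass when any 1 library other than WT replicate 3 was left out (limma adjusted p of 0.011 to 0.0212).

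Both REV-ERB genes, whose products act on the Bmal1 promoter, fell. Nr1d2, which encodes REV-ERBβ, was at 97.3, 82.1 and 76.1 TPM in WT, at 10.3, 13.5 and 15.2 TPM in Bmal1-/- and at 7.14, 6.5 and 9.13 TPM in Clock-/- libraries. All 6 knockout libraries lay far below WT, and the log2 fold change in Bmal1-/- of -2.63 ± 0.16 (SE, limma adjusted p = 1.11e-06) was the largest of any clock gene. Nr1d1, which encodes REV-ERBα, was at 7.68, 8.32 and 9.07 TPM in WT and at 5.09, 3.45 and 4.87 TPM in Bmal1-/- libraries (log2 fold change -0.79 ± 0.16 SE, limma adjusted p = 0.002). Both receptor genes were higher in Bmal1-/- than in Clock-/- libraries, by 0.90 ± 0.16 (SE, limma adjusted p = 0.000825) for Nr1d1 and by 0.70 ± 0.16 (SE, limma adjusted p = 0.004) for Nr1d2. Rora, at 8.89, 7.99 and 7.17 TPM in WT and 11.5, 13.1 and 12.5 TPM in Bmal1-/- libraries, narrowly missed the threshold for p (log2 fold change 0.57 ± 0.15 SE, limma adjusted p = 0.0101), with no overlap between groups, and passed in other settings, at 0.86 with GC medians subtracted (limma adjusted p = 3.74e-05).

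Of the output genes, the bZIP factors that bind D-box elements all had higher means except Tef. Hlf, an activator, was at 8.31, 8.33 and 7.29 TPM in WT and at 29.1, 29.8 and 33.4 TPM in Bmal1-/- libraries (log2 fold change 1.82 ± 0.14 SE, limma adjusted p = 4.33e-06). Nfil3, which encodes the repressor of the same elements, was at 31.4, 32.5 and 32.4 TPM in WT and at 74.8, 71.3 and 71.6 TPM in Bmal1-/- libraries (log2 fold change 1.15 ± 0.08 SE, limma adjusted p = 2.35e-06). Neither gene overlapped between groups, and both were also higher than in Clock-/- libraries, where Hlf was at 12.7, 10.7 and 16.1 TPM and Nfil3 at 34.9, 28.7 and 32.8 TPM. Dbp rose by 0.50 ± 0.08 (SE, limma adjusted p = 0.000342), from 20.7 ± 1.15 to 29.7 ± 1.05 TPM (SD, n = 3). Tef, at 26.3, 25.8 and 23.8 TPM in WT and at 21.1, 21.6 and 21.1 TPM in Bmal1-/- libraries, had a log2 fold change of -0.24 ± 0.10 (SE, limma adjusted p = 0.0691).

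The E-box repressor genes of the BHLHE pair rose. Bhlhe41 was at 12.4, 12.5 and 11.2 TPM in WT and at 30.1, 29.9 and 32.3 TPM in Bmal1-/- libraries (log2 fold change 1.28 ± 0.08 SE, limma adjusted p = 1.27e-06), and Bhlhe40 rose by 0.75 ± 0.13 (SE, limma adjusted p = 0.000918). Ciart, a further repressor of the dimer, fell by 0.64 ± 0.15 (SE, limma adjusted p = 0.00442), from 9.05, 8.23 and 9.44 TPM to 4.3, 6.73 and 5.24 TPM, and did not pass when any 1 library other than Bmal1-/- replicate 2 was left out (limma adjusted p of 0.0106 to 0.0185). Wee1, which encodes a kinase that restrains CDK1, rose by 0.77 ± 0.10 (SE, limma adjusted p = 0.000111), from 56.6 ± 5.52 to 97.1 ± 6.54 TPM (SD, n = 3). Nampt, the NAD salvage enzyme gene, had a log2 fold change of -0.30 and did not pass. Clock itself was at 49.7, 46.7 and 40.9 TPM in WT and at 30.9, 35.2 and 36.5 TPM in Bmal1-/- libraries, which did not overlap but did not pass the test (log2 fold change -0.41 ± 0.16 SE, limma adjusted p = 0.0543). Npas2, a paralog of Clock, was at 0.0331, 0 and 0.0381 TPM in WT, was listed at 0 in all 3 Bmal1-/- libraries and reached 2.99, 3.5 and 4.6 TPM in Clock-/- libraries.

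**Figure D1:**
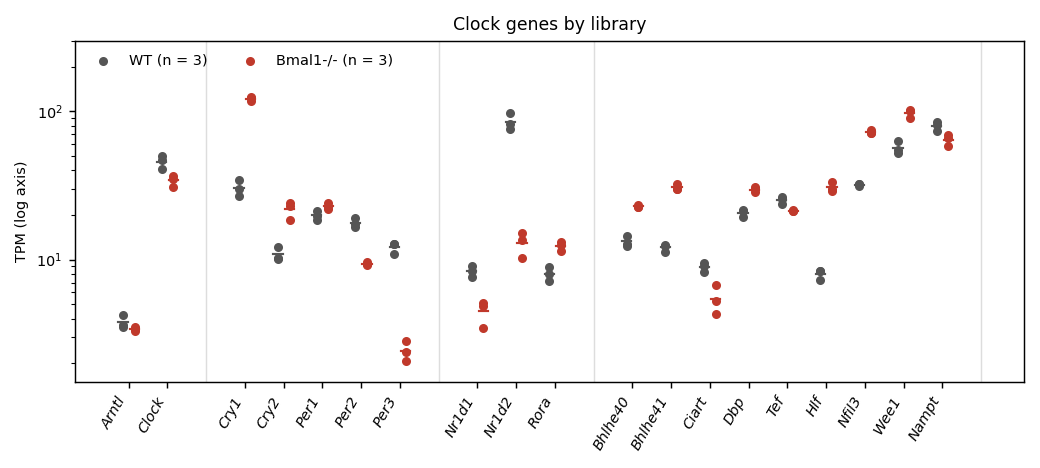
TPM on a log axis of clock genes in the 3 WT and 3 Bmal1-/- libraries, with a point for each library, a short bar at the group mean and thin vertical lines between activators, repressors, receptors and output genes. Cry1 and Hlf sit above WT in all 3 Bmal1-/- libraries, Per3 and Nr1d2 below, and the Per1 points of WT and Bmal1-/- libraries lie close together.

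The palindromic E-box, CACGTG, reads the same on both strands and was searched in the 250 bases before each annotated start, for the 10294 tested genes with a promoter in the RefSeq table (GRCm38.p6). It stood in 9.98% of all these promoters, in 47 of 427 promoters of called higher genes (11.01%) and in 76 of 766 promoters of called lower genes (9.92%). Of the 22 clock genes with a promoter, 5 held it (22.7%), and these 5 did not share a direction. Cry1 and Bhlhe41 rose, Ciart fell, and Per1 and Tef did not pass. A match is a description and not a shown binding site, and E-boxes outside this window were not searched. The sequences of 4 of these promoters are shown because they stand beside different responses, with CACGTG in capitals. They lie at chr10:85185089-85185134 on the minus strand for Cry1, chr6:145865548-145865593 on the minus strand for Bhlhe41, chr3:95882319-95882364 on the minus strand for Ciart and chr11:69098763-69098808 on the plus strand for Per1.
Cry1: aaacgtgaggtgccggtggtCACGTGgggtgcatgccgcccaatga
Bhlhe41: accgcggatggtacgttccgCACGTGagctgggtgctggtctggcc
Ciart: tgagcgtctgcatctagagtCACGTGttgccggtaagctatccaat
Per1: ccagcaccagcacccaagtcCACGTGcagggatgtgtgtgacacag

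Outside the clock, the ER chaperone list and the sterol list had the lowest medians of the 31 lists examined. Of 32 genes for chaperones of the endoplasmic reticulum (ER) and the unfolded protein response, 25 fell and 0 rose (0 also with chromosome medians, GC medians or both subtracted), and their median log2 fold change was -0.85. Of 36 genes of ER to Golgi transport 22 fell and 1 rose, with a median of -0.47. Of 30 genes of sterol and fatty acid synthesis 22 fell and 1 rose, with a median of -0.85. The list of glycolysis genes lay on the other side, with 11 of 20 genes that rose, 1 that fell and a median of 0.49. Over all genes tested, 18.4% rose and 21.0% fell, or 21.6% and 20.6% with chromosome medians subtracted, 22.3% and 21.4% with GC medians subtracted, and 21.2% and 20.7% with both subtracted.

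**Figure D2:**
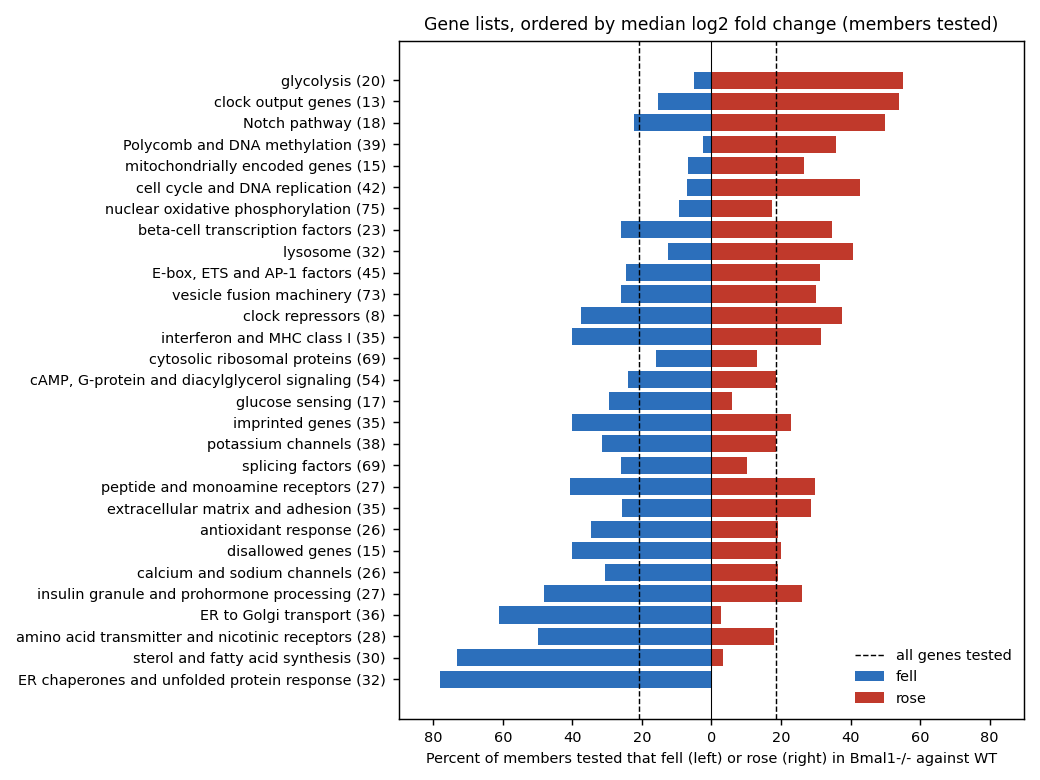
Percent of the tested genes of each list that rose (to the right) or fell (to the left) in Bmal1-/- against WT libraries at an adjusted p under 0.01, with the number tested in brackets and all genes tested as a reference. The ER chaperone, sterol and ER to Golgi lists extend furthest to the left, and the glycolysis and clock output lists furthest to the right.

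The ER chaperones were among the most abundant mRNAs that fell. Hspa5, which encodes the ER chaperone BiP, was at 2076, 1891 and 1869 TPM in WT and at 917, 892 and 945 TPM in Bmal1-/- libraries (log2 fold change -1.08 ± 0.06 SE, limma adjusted p = 8.96e-07). Calr, the gene of the lectin chaperone calreticulin, was at 3158, 3010.3 and 3028 TPM in WT and at 1799.8, 1638 and 1679 TPM in Bmal1-/- libraries (log2 fold change -0.85 ± 0.07 SE, limma adjusted p = 6.18e-06). Pdia6, a protein disulfide isomerase gene, was at 1631, 1546 and 1529.5 TPM in WT and at 629.8, 587 and 633 TPM in Bmal1-/- libraries (log2 fold change -1.35 ± 0.06 SE, limma adjusted p = 2.04e-07). For each of these 3 genes the Bmal1-/- libraries lay below all WT libraries and also below all Clock-/- libraries, which held 1273 to 1367 TPM of Hspa5, 2493 to 2784 TPM of Calr and 1068 to 1174 TPM of Pdia6. The differences between the knockouts were -0.52 ± 0.06 (SE, limma adjusted p = 8.08e-05) for Hspa5, -0.62 ± 0.07 (SE, limma adjusted p = 3.90e-05) for Calr and -0.87 ± 0.06 (SE, limma adjusted p = 2.80e-06) for Pdia6. Of the 32 genes of the list, 19 were lower and 0 were higher in Bmal1-/- than in Clock-/- libraries, where 21.8% of all genes were lower and 22.8% higher by the same test.

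The falls reached several branches of the ER stress response. Creld2, whose product is a secreted ER stress protein, was at 770.2, 736 and 791 TPM in WT and at 216, 187 and 189 TPM in Bmal1-/- libraries (log2 fold change -1.95 ± 0.08 SE, limma adjusted p = 6.62e-08). Atf4, which encodes the transcription factor of the integrated stress response, was at 893, 915 and 876 TPM in WT and at 320.2, 302 and 318 TPM in Bmal1-/- libraries (log2 fold change -1.51 ± 0.06 SE, limma adjusted p = 5.11e-08). Its known targets Chac1, a glutathione-degrading enzyme gene, and Trib3, a pseudokinase gene, fell by 2.10 ± 0.08 (SE, limma adjusted p = 4.31e-08) and by 1.73 ± 0.07 (SE, limma adjusted p = 5.97e-08). In Clock-/- libraries Atf4 stood at 829, 835 and 775 TPM and Chac1 at 189, 164 and 185 TPM, so that Bmal1-/- libraries were lowest of the 3 genotypes for both. Xbp1, which encodes the factor activated by IRE1, fell by 0.42 ± 0.05 (SE, limma adjusted p = 0.000131). The genes of the 3 stress sensors, Atf6, Ern1 and Eif2ak3, had log2 fold changes of -0.49, -0.48 and -0.29 and did not pass the test with the values as deposited. Ern1, on chromosome 11, passed at -0.83 with the chromosome median subtracted (limma adjusted p = 0.00169) and at -0.87 with both medians subtracted. With GC medians subtracted Atf6 passed at -0.40 (limma adjusted p = 0.00743) and Eif2ak3 at -0.30 (limma adjusted p = 0.00641), but Atf6, on chromosome 1, had -0.12 (limma adjusted p = 0.344) with both subtracted.

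Among carriers between ER and Golgi, the KDEL receptor genes, whose products return ER proteins from the Golgi, differed in size of change. Kdelr2 was at 754, 753 and 755 TPM in WT and at 368, 379.5 and 398 TPM in Bmal1-/- libraries (log2 fold change -0.98 ± 0.06 SE, limma adjusted p = 6.88e-07), and Kdelr1 fell by 0.42 ± 0.06 (SE, limma adjusted p = 0.000324). Kdelr3 was at 93.4, 103 and 91.6 TPM in WT and at 0.199, 0.464 and 0.582 TPM in Bmal1-/- libraries, the largest fall of any list member at -6.11 ± 0.12 (SE, limma adjusted p = 3.14e-09) on the log2 scale. Clock-/- libraries held 9.68, 10.6 and 9 TPM of Kdelr3, between the other genotypes. Lman1, a cargo receptor gene, fell by 1.11 ± 0.11 (SE, limma adjusted p = 3.44e-05), and Sec24d, a gene of the COPII coat, by 0.90 ± 0.11 (SE, limma adjusted p = 0.000108). Gosr1, a Golgi SNARE gene on chromosome 11, was the 1 member that rose (0.49 ± 0.12 SE, limma adjusted p = 0.00574), and it no longer passed with chromosome and GC medians subtracted (0.15, limma adjusted p = 0.0981) or without any 1 library other than WT replicate 1 (limma adjusted p of 0.0118 to 0.0251).

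The ER stress response element (ERSE), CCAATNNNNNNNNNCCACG, is the sequence bound by NF-Y and ATF6 in promoters of ER chaperones. It was searched in the same windows on both strands, a choice made after the direction of the ER list was known. Of 10294 promoters 17 held it (0.165%), and of these 17 genes 13 fell and 0 rose. Of the 27 ER-list genes with a promoter 8 held it (29.6%), and 7 of the 8 fell, whereas Canx, on chromosome 11, did not pass with the values as deposited. The other 6 that fell were Derl3, Alg12, Adcy3, Hnrnpa3, Xlr3a and Xlr3b, of which Hnrnpa3 did not pass with GC medians subtracted (-0.27, limma adjusted p = 0.016). Creld2 and Alg12 are neighbouring genes, and Xlr3a, Xlr3b and Xlr3c are near-identical copies whose reads may be split. Among the 766 promoters of called lower genes 8 held the motif (1.04%), and among the 427 of called higher genes 0 held it. The last letters of the element, CACG, also begin the E-box motif, so that matches of both could overlap. The windows below carry the motif's fixed letters in capitals, read along the gene's strand, and for Calr, Creld2 and Derl3 it lies on the other strand. They lie at chr2:34772005-34772063 (plus) for Hspa5, chr12:17266471-17266529 (plus) for Pdia6, chr14:118937807-118937865 (plus) for Dnajc3, chr8:84847055-84847113 (minus) for Calr, chr15:88819500-88819558 (plus) for Creld2, chr10:75893222-75893280 (plus) for Derl3 and chr11:50325780-50325838 (minus) for Canx.
Hspa5: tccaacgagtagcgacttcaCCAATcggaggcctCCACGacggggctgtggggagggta
Pdia6: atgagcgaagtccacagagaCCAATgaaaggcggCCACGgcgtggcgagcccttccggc
Dnajc3: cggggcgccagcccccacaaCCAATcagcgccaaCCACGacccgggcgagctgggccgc
Calr: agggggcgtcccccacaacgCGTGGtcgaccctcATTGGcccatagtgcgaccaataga
Creld2: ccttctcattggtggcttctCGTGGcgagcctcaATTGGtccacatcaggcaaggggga
Derl3: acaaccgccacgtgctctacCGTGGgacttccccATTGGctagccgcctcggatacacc
Canx: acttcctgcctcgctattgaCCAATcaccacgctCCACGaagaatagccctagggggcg

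These genes fell by different amounts. The end of the motif nearest to the start lay 47 bases before it in Hspa5, 80 in Pdia6, 87 in Dnajc3, 108 in Creld2, 138 in Derl3, 144 in Calr and 127 in Canx. Derl3, a gene of ER-associated degradation, was at 62.2, 61.8 and 52.8 TPM in WT and at 11, 14.5 and 15.1 TPM in Bmal1-/- libraries (log2 fold change -2.05 ± 0.14 SE, limma adjusted p = 2.69e-06), and Dnajc3, a co-chaperone gene, fell by 1.23 ± 0.09 (SE, limma adjusted p = 4.52e-06). Canx, the gene of the membrane chaperone calnexin, was at 1010.3, 917 and 833 TPM in WT and at 852, 889 and 917 TPM in Bmal1-/- libraries, which overlapped (log2 fold change -0.05 ± 0.10 SE, limma adjusted p = 0.681). The value for Canx depended on the centring, at -0.41 with the chromosome median subtracted, which passed (limma adjusted p = 0.00115), at 0.21 with GC medians subtracted (limma adjusted p = 0.0151) and at -0.21 with both (limma adjusted p = 0.0131).

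Genes fell along most of the sterol pathway. Idi1, Sqle, Cyp51, Msmo1 and Hsd17b7, which encode enzymes of the path from isopentenyl diphosphate to cholesterol, were all called lower, with log2 fold changes of -1.85, -1.60, -1.27, -1.33 and -1.17. Sqle, the squalene epoxidase gene, was at 117, 114 and 101 TPM in WT and at 33.7, 34.8 and 38.7 TPM in Bmal1-/- libraries (± 0.09 SE, limma adjusted p = 5.19e-07). Clock-/- libraries held 98.4, 87 and 100.1 TPM of Sqle, close to WT, and the difference between the knockouts was -1.39 ± 0.09 (SE, limma adjusted p = 1.21e-06). This did not hold for every member of the list. For Cyp51 the Clock-/- mean of 143 TPM lay between 217 TPM in WT and 89.5 TPM in Bmal1-/- libraries.

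The regulator Srebf2, whose product drives sterol genes, was at 139.9, 137 and 120.0 TPM in WT and at 68.7, 54.7 and 66.8 TPM in Bmal1-/- libraries (log2 fold change -1.05 ± 0.13 SE, limma adjusted p = 8.70e-05). Insig1, which encodes an ER anchor of the SREBP pathway, fell by 0.81 ± 0.09 (SE, limma adjusted p = 6.22e-05). Srebf1, which drives fatty acid genes, had a log2 fold change of 0.20 and did not pass, and it turned to -0.35 (limma adjusted p = 0.00089) with chromosome and GC medians subtracted. Of the fatty acid enzymes, Elovl6, an elongase gene, was at 35.4, 32.5 and 29.1 TPM in WT and at 5.7, 3.85 and 5.65 TPM in Bmal1-/- libraries (log2 fold change -2.47 ± 0.16 SE, limma adjusted p = 1.55e-06). The desaturase genes Scd1 and Scd2 fell by 1.07 ± 0.13 (SE, limma adjusted p = 9.06e-05) and by 0.78 ± 0.11 (SE, limma adjusted p = 0.000223). Acly, which makes cytosolic acetyl-CoA, was the member that rose (0.48 ± 0.11 SE, limma adjusted p = 0.00383), and its value was 0.05 (limma adjusted p = 0.668) with chromosome and GC medians subtracted. Acly did not pass when any 1 library was left out (limma adjusted p of 0.0116 to 0.0171). Of the 30 members, 12 were lower and 2 higher in Bmal1-/- than in Clock-/- libraries, where 21.8% of all genes were lower and 22.8% higher by the same test. Among those that did not differ by that test were Hsd17b7 (-0.21 ± 0.17 SE, limma adjusted p = 0.31) and Insig1 (0.14 ± 0.09 SE, limma adjusted p = 0.223).

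**Figure D3:**
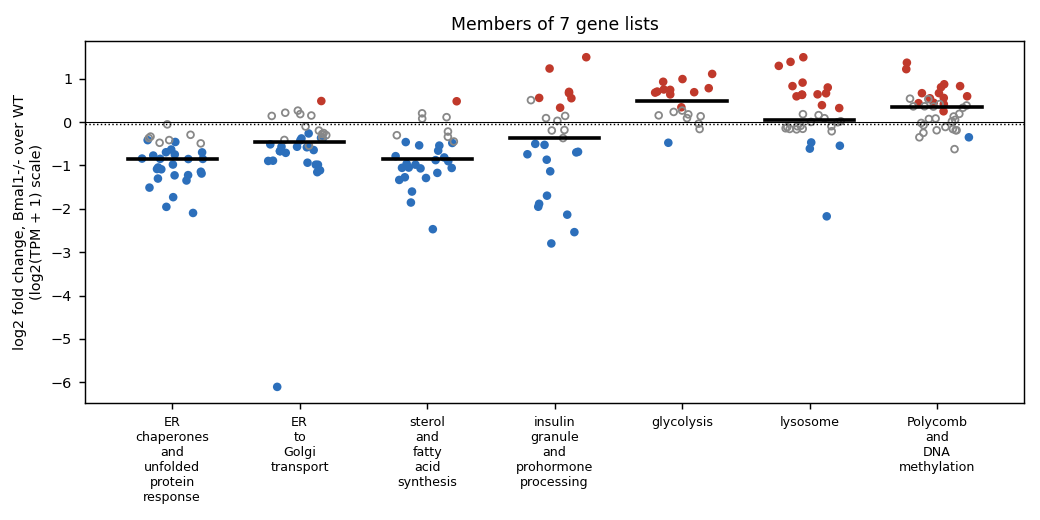
Log2 fold change in Bmal1-/- against WT of each tested member of selected gene lists, one point per gene, with filled points for genes that passed an adjusted p under 0.01 and a dotted line at the median of all genes tested (-0.04). Members of the ER chaperone and sterol lists lie almost all below the line, and the Kdelr3 point stands far under the others.

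The secretory granule genes changed in both directions, with 13 of 27 that fell and 7 that rose (median -0.37). Ins2, the more abundant insulin gene of this line, was at 27105, 29444 and 28251 TPM in WT and at 21755, 18748 and 19498 TPM in Bmal1-/- libraries (log2 fold change -0.50 ± 0.11 SE, limma adjusted p = 0.00354). The groups did not overlap, but Ins2 did not pass in 9 of the 20 alternative settings. Among them were quantile normalisation (-0.35, limma adjusted p = 0.173) and no filter on low values (limma adjusted p = 0.0427). The fits without WT replicate 2 or 3 or Bmal1-/- replicate 2 or 3 were also among them (limma adjusted p of 0.0128 to 0.0187). Ins1, the second insulin gene, was at 2277, 2359 and 2284 TPM in WT and at 2567, 2319 and 2197 TPM in Bmal1-/- libraries, which overlapped (log2 fold change 0.03 ± 0.07 SE, limma adjusted p = 0.734). In Clock-/- libraries Ins1 stood at 61.4, 64 and 57.7 TPM, so that the knockouts differed in Ins1 by 5.25 ± 0.07 (SE, limma adjusted p = 1.66e-10) on the log2 scale and in Ins2 by 0.46 ± 0.11 (SE, limma adjusted p = 0.00503). Iapp, which encodes the co-secreted amylin, was at 21682, 21689.8 and 22973 TPM in WT and at 14853, 15317 and 15979 TPM in Bmal1-/- libraries (log2 fold change -0.52 ± 0.09 SE, limma adjusted p = 0.000964), and it did not pass in 6 settings, which gave -0.52 with no filter on low values (limma adjusted p = 0.0233) to -0.22 with chromosome and GC medians subtracted (limma adjusted p = 0.346).

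Other peptide hormones moved further. Npy, a neuropeptide gene, was at 3216, 3319 and 3552 TPM in WT and at 9909, 9265 and 9316 TPM in Bmal1-/- libraries, the largest rise of any gene in TPM (log2 fold change 1.50 ± 0.10 SE, limma adjusted p = 1.43e-06). Clock-/- libraries held more, at 15515, 17211 and 13540.3 TPM. Sct, the secretin gene, was at 3121, 3148 and 4198 TPM in WT and at 1246, 1089 and 1107 TPM in Bmal1-/- libraries (log2 fold change -1.59 ± 0.15 SE, limma adjusted p = 1.71e-05). Cartpt, which encodes the CART peptide, was at 44.7, 42.2 and 45.9 TPM in WT and at 1.61, 0.751 and 1.51 TPM in Bmal1-/- libraries, where Clock-/- libraries held 40.1, 48 and 34.2 TPM (log2 fold change against WT -4.33 ± 0.17 SE, limma adjusted p = 5.97e-08). The hormone genes of α and δ cells fell, although other markers of these cells rose. Gcg, the glucagon gene, was at 475, 493 and 462 TPM in WT, at 53.9, 49.4 and 53.4 TPM in Bmal1-/- and at 1308, 1155 and 1211 TPM in Clock-/- libraries (log2 fold change against WT -3.17 ± 0.06 SE, limma adjusted p = 3.14e-09). The α-cell transcription factor genes Irx1 and Irx2 rose, Irx1 from 7.49, 6.54 and 7.07 TPM to 34.3, 27.5 and 27.4 TPM (log2 fold change 1.93 ± 0.12 SE, limma adjusted p = 1.55e-06) and Irx2 by 1.47 ± 0.10 (SE, limma adjusted p = 2.56e-06). Sst, the somatostatin gene, fell by 2.06 ± 0.13 (SE, limma adjusted p = 1.31e-06), and Rbp4, on the δ-cell list, rose by 0.55 (limma adjusted p = 0.000125). Gast, the gastrin gene, fell by 2.54 ± 0.30 (SE, limma adjusted p = 8.11e-05), and Cck, the cholecystokinin gene, rose by 0.67 ± 0.10 (SE, limma adjusted p = 0.000461) but did not pass with GC medians subtracted (limma adjusted p = 0.0116). No one direction held for the peptide genes.

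Several enzymes and membrane proteins of the granule fell. Ptprn, which encodes the granule membrane protein IA-2, was at 1165, 1129 and 1057 TPM in WT and at 265, 237 and 259.7 TPM in Bmal1-/- libraries (log2 fold change -2.13 ± 0.10 SE, limma adjusted p = 1.85e-07). Vgf, a granin-family gene, was at 198, 189 and 181 TPM in WT and at 27.7, 23.4 and 28 TPM in Bmal1-/- libraries (log2 fold change -2.80 ± 0.08 SE, limma adjusted p = 7.23e-09). Pam, the peptide-amidating enzyme gene, fell by 1.88 ± 0.10 (SE, limma adjusted p = 4.49e-07) and stood at a like level in Clock-/- libraries (38.6, 31.4 and 40.3 TPM against 34.2, 35.9 and 36.1 TPM). The prohormone convertase genes went apart. Pcsk1 fell by 0.74 ± 0.11 (SE, limma adjusted p = 0.000366), from 423 ± 32.1 to 252 ± 10.1 TPM (SD, n = 3), and Pcsk2 rose by 0.55 ± 0.07 (SE, limma adjusted p = 0.000117), from 629 ± 14.9 to 922 ± 18.8 TPM (SD, n = 3). The carboxypeptidase gene Cpe fell by 0.68 ± 0.06 (SE, limma adjusted p = 1.38e-05), and Slc30a8, the granule zinc transporter gene, fell by 0.70 ± 0.12 (SE, limma adjusted p = 0.000661). Rph3al, whose product binds RAB27 on granules, rose by 1.24 ± 0.10 (SE, limma adjusted p = 5.17e-06).

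Of 23 β-cell transcription factor genes 8 rose and 6 fell. Nkx6-1, which maintains β-cell identity, was at 273, 272 and 249.7 TPM in WT and at 642, 642 and 656 TPM in Bmal1-/- libraries (log2 fold change 1.29 ± 0.06 SE, limma adjusted p = 3.30e-07). Mafa, an activator of the insulin genes, was at 838, 899.5 and 905 TPM in WT and at 645, 582 and 641 TPM in Bmal1-/- libraries (log2 fold change -0.50 ± 0.10 SE, limma adjusted p = 0.00161), and it did not pass with the median of chromosome 15 subtracted (-0.25, limma adjusted p = 0.0376). Pdx1, at 496, 498 and 480.3 TPM in WT and 593, 578 and 569.6 TPM in Bmal1-/- libraries, did not overlap between groups but did not pass (log2 fold change 0.24 ± 0.07 SE, limma adjusted p = 0.0208). The forkhead genes Foxa1 and Foxa2 rose by 2.25 ± 0.14 (SE, limma adjusted p = 1.34e-06) and by 0.73 ± 0.06 (SE, limma adjusted p = 1.20e-05). Foxa1 started from 0.647, 0.803 and 0.915 TPM in WT and reached 7.61, 7.79 and 7.07 TPM in Bmal1-/- libraries and 7, 9.05 and 6.27 TPM in Clock-/- libraries. Glis3, a zinc finger regulator of insulin transcription, rose by 1.32 ± 0.17 (SE, limma adjusted p = 0.000144), Mnx1, a homeobox gene, fell by 1.15 and St18 by 1.11 on the log2 scale.

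In glucose handling, Slc2a2, which encodes the glucose transporter GLUT2, was at 111, 113 and 102 TPM in WT, at 34.2, 50.7 and 43.3 TPM in Bmal1-/- and at 5.8, 6.35 and 8.25 TPM in Clock-/- libraries. The 3 genotypes did not overlap (log2 fold change against WT -1.34 ± 0.15 SE, limma adjusted p = 5.50e-05). Of the KATP channel genes, Kcnj11 had a log2 fold change of 0.31 and Abcc8 of 0.15, and neither passed.

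Of the 20 glycolysis genes tested 11 rose and 1 fell. Tpi1, the triosephosphate isomerase gene, was at 692, 798 and 862 TPM in WT and at 1523, 1707 and 1450.1 TPM in Bmal1-/- libraries (log2 fold change 0.99 ± 0.09 SE, limma adjusted p = 1.63e-05). Pkm, the pyruvate kinase gene, was at 1431, 1448 and 1452 TPM in WT and at 2517, 2447 and 2346 TPM in Bmal1-/- libraries (log2 fold change 0.75 ± 0.06 SE, limma adjusted p = 5.55e-06). In both genes the lowest Bmal1-/- library lay well above the highest WT library. Ldha, the lactate dehydrogenase gene that mature β cells keep low, rose by 1.11 ± 0.14 (SE, limma adjusted p = 9.89e-05), and its Clock-/- level differed by only 0.01 ± 0.14 (SE, limma adjusted p = 0.934). Gapdh, Eno1, Pgam1, Gpi1, Pfkl, Pfkm and Aldoc rose by 0.64 to 0.93, of which Aldoc, on chromosome 11, did not pass with chromosome and GC medians subtracted (0.27, limma adjusted p = 0.0802). The neuronal enolase gene Eno2 fell by 0.48 ± 0.10 (SE, limma adjusted p = 0.00233), with an adjusted p of 0.0122 without Bmal1-/- replicate 3 and of 0.0121 without WT replicate 1 by limma. The kinase genes Hk1 and Pfkp had log2 fold changes of 0.09 and 0.27 and did not pass with the values as deposited. Pfkp passed in other settings, at 0.33 with GC medians subtracted (limma adjusted p = 0.00084). Pfkfb2, which makes the activator of phosphofructokinase, fell by 1.56 ± 0.14 (SE, limma adjusted p = 1.33e-05).

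The nuclear oxidative genes moved little as a list. Of 75 nuclear genes of oxidative phosphorylation 13 rose and 7 fell (median 0.15), and of 15 mitochondrially encoded genes 4 rose and 1 fell (median 0.28). The median of the mitochondrially encoded genes was 0.61 with GC medians subtracted, where 7 rose and 0 fell. In the setting with chromosome and GC medians subtracted it was 0.52, where 6 rose and 0 fell. These 15 genes were too few for a chromosome median, so none was subtracted from them, and their median stayed at 0.28 in the setting with chromosome medians alone. The GC medians were those of all tested genes of like GC content. The mitochondrial ribosomal RNA genes mt-Rnr1 and mt-Rnr2 rose. Levels of mt-Rnr1 were 829.9, 979.7 and 1057 TPM in WT and 2433, 3690.0 and 3079.7 TPM in Bmal1-/- libraries (log2 fold change 1.67 ± 0.15 SE, limma adjusted p = 1.13e-05). The libraries were made from polyadenylated RNA, and the part of that selection in the levels of these RNAs was not tested. Pcx, the gene of pyruvate carboxylase, rose by 0.66 ± 0.10 (SE, limma adjusted p = 0.000321).

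Lysosomal genes rose more often than they fell, 13 against 4 of 32. Ctsf, a cathepsin gene, was at 50.5, 52.5 and 55.7 TPM in WT and at 158, 141 and 155 TPM in Bmal1-/- libraries (log2 fold change 1.50 ± 0.07 SE, limma adjusted p = 2.62e-07). Lipa, the acid lipase gene, rose by 1.39 ± 0.12 (SE, limma adjusted p = 1.25e-05), and Tfeb, which encodes a transcription factor of lysosomal genes, rose by 1.30 ± 0.11 (SE, limma adjusted p = 8.11e-06), from 5.04, 5.54 and 5.47 TPM to 15.8, 12.8 and 15.4 TPM. Tfeb lies in a run of 5 neighbouring genes called higher on chromosome 17, in a window of 20 Mb with a median log2 fold change of 0.46. Psap and Cd63 were among the 10 largest rises in TPM, Psap from 1474 ± 43.3 to 2284 ± 159.7 TPM and Cd63 from 1404 ± 68.7 to 2123 ± 142 TPM (SD, n = 3), though Cd63 did not pass in limma with GC medians subtracted (0.38, adjusted p = 0.0119). Cd68, a macrophage-type lysosomal gene that is also on the immune marker list, was the largest fall at -2.17 ± 0.09 (SE, limma adjusted p = 1.37e-07), and it stood at 22, 22.2 and 20.9 TPM in Clock-/- against 1.23, 1.31 and 1.18 TPM in Bmal1-/- libraries.

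Antioxidant genes were split, with 5 of 26 that rose (19.2%, against 18.4% of all genes tested) and 9 that fell (34.6%, against 21.0%). Hmox1, the heme oxygenase gene, was at 211, 227 and 191 TPM in WT and at 75.9, 69.1 and 70.1 TPM in Bmal1-/- libraries (log2 fold change -1.53 ± 0.08 SE, limma adjusted p = 3.16e-07), and Srxn1, the sulfiredoxin gene, which lies in a run of 4 neighbours called lower on chromosome 2, fell by 1.43 ± 0.07 (SE, limma adjusted p = 2.16e-07). Both are targets of NRF2, and so is Nqo1, which rose from 0.307, 0.879 and 0.822 TPM to 6.81, 8.31 and 6.25 TPM (log2 fold change 2.29 ± 0.21 SE, limma adjusted p = 1.62e-05). Nfe2l2, the NRF2 gene, rose by 0.44 ± 0.11 (SE, limma adjusted p = 0.00657), and did not pass when any 1 library other than Bmal1-/- replicate 1 was left out (limma adjusted p of 0.0166 to 0.0324). The lipid peroxidase gene Gpx4 rose by 0.88 ± 0.07 (SE, limma adjusted p = 9.32e-06).

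Receptor genes changed in both directions. Of 28 receptors for amino acid transmitters and acetylcholine 14 fell and 5 rose (median -0.49), and of 27 peptide and monoamine receptors 11 fell and 8 rose. The somatostatin receptor genes were not alike. Sstr3 was at 105, 101 and 101 TPM in WT and at 22.6, 20.7 and 19.5 TPM in Bmal1-/- libraries (log2 fold change -2.24 ± 0.14 SE, limma adjusted p = 1.57e-06), Sstr5 and Sstr1 fell from lower levels by 1.76 and 1.42, and Sstr2 rose by 1.60 ± 0.19 (SE, limma adjusted p = 8.41e-05). Igf1r, which encodes the receptor of IGF1, fell from 2.93, 2.63 and 2.87 TPM to 0.118, 0.156 and 0.098 TPM. The pentraxin genes, whose products cluster AMPA receptors, took opposite directions. Nptx1 was at 44.4, 41.9 and 38.8 TPM in WT and at 118, 122 and 123 TPM in Bmal1-/- libraries (log2 fold change 1.52 ± 0.21 SE, limma adjusted p = 0.000238), whereas Nptx2 fell by 5.07 and Nptxr by 1.31. The α2A-adrenergic receptor gene Adra2a, which restrains insulin secretion, rose by 0.60 ± 0.10 (SE, limma adjusted p = 0.000531).

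Channel and vesicle genes changed in both directions. Of 38 potassium channel genes 7 rose and 12 fell (31.6%, against 21.0% of all genes tested) and 9 were called lower (7.97% of all genes). Of 26 calcium and sodium channel genes 5 rose (19.2%) and 8 fell (30.8%). Of 73 genes of vesicle fusion 22 rose (30.1%, against 18.4% of all genes tested) and 19 fell (26.0%). Of 54 genes of cAMP, G-protein and diacylglycerol signalling 10 rose (18.5%) and 13 fell (24.1%), close to the 18.4% and 21.0% of all genes tested. Within the last list Adcy3, an adenylyl cyclase gene named because its promoter holds the ERSE letters, fell by 1.15 ± 0.14 (SE, limma adjusted p = 0.000111). Its levels were low, at 1.96, 1.97 and 1.81 TPM in WT and at 0.293, 0.28 and 0.369 TPM in Bmal1-/- libraries. Adcy3 does not stand for the list, in which 10 members rose.

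Cell cycle genes rose in 18 of 42 cases and fell in 3. Cdkn1b, the gene of the inhibitor p27, was at 173, 168 and 146 TPM in WT and at 248, 297 and 289.7 TPM in Bmal1-/- libraries (log2 fold change 0.77 ± 0.10 SE, limma adjusted p = 0.000128). The mitotic genes Ccnb2 and Aurkb rose by 0.81 ± 0.06 (SE, limma adjusted p = 2.75e-06) and 0.73 ± 0.06 (SE, limma adjusted p = 7.62e-06), and Mki67, a proliferation marker, had a log2 fold change of -0.11 and did not pass. Inhibitors and drivers of the cycle thus both stood among the rises. Ccnd2, the main D cyclin gene of β cells, fell from 59.3, 51.1 and 48 TPM to 20.7, 15.7 and 20.5 TPM (log2 fold change -1.44 ± 0.14 SE, limma adjusted p = 2.47e-05), while Clock-/- libraries held 279, 223 and 306 TPM. Without WT replicate 2 or without Bmal1-/- replicate 3, 11 members of this list rose.

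Of 39 Polycomb and DNA methylation genes 14 rose and 1 fell. Dnmt3a, the de novo DNA methyltransferase gene, was at 39.1, 36.2 and 31.3 TPM in WT and at 85.5, 80.3 and 86.1 TPM in Bmal1-/- libraries (log2 fold change 1.22 ± 0.17 SE, limma adjusted p = 0.000235). Uhrf1, whose product guides maintenance methylation, rose by 0.87 ± 0.12 (SE, limma adjusted p = 0.000243), and Kdm6b, an H3K27 demethylase gene, by 1.37 ± 0.19 (SE, limma adjusted p = 0.000199). Ezh2 and Suz12, core genes of Polycomb repressive complex 2, had log2 fold changes of 0.19 and 0.38 and did not pass with the values as deposited. Ezh2 passed at 0.34 with GC medians subtracted (limma adjusted p = 0.000125) and at 0.37 with both medians subtracted, and Suz12, on chromosome 11, passed at 0.64 with GC medians subtracted (limma adjusted p = 1.89e-05) but had 0.03 with the chromosome median subtracted. Eed, the other core gene, fell by 0.35 ± 0.08 (SE, limma adjusted p = 0.00496) and did not pass when any 1 library other than Bmal1-/- replicate 3 was left out (limma adjusted p of 0.0118 to 0.0215).

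Of 69 splicing factor genes 18 fell (26.1%, against 21.0% of all genes tested) and 7 rose (10.1%, against 18.4%). Their median log2 fold change was -0.16, and -0.04 with GC medians subtracted, where 18 fell and 11 rose. Elavl3, a neuronal RNA-binding protein gene, fell by 2.68 ± 0.12 (SE, limma adjusted p = 1.85e-07), Rbm20, best known from heart muscle, fell by 1.73 ± 0.10 (SE, limma adjusted p = 1.03e-06), and the neuronal factor gene Nova2 rose by 1.17 ± 0.15 (SE, limma adjusted p = 0.000124). Imprinted genes fell in 14 and rose in 8 of 35 cases. Ndn, the necdin gene, went from 11.9, 14.4 and 13.8 TPM in WT to 0, 0.0296 and 0 TPM in Bmal1-/- libraries, with 0.353, 0.328 and 0.383 TPM in Clock-/- libraries. At the Dlk1-Meg3 locus the genes of the 2 parental alleles moved apart. The maternally expressed RNA Meg3 fell by 1.78 ± 0.11 (SE, limma adjusted p = 1.17e-06), with its neighbours Rian and Mirg at -1.13 and -1.32, and the paternally expressed Dlk1 rose by 1.21 ± 0.08 (SE, limma adjusted p = 2.48e-06).

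The MHC class I genes were also split. H2-Q6 was at 88.9, 87.7 and 84.4 TPM in WT and at 3.85, 3.15 and 3.95 TPM in Bmal1-/- libraries (log2 fold change -4.25 ± 0.10 SE, limma adjusted p = 3.49e-09), and H2-Q7 fell by 4.12. These genes are near-identical copies, so that reads may be split between them. The classical genes H2-K1 and H2-D1 fell by 0.45 and 0.44, and the non-classical H2-T23 rose by 1.76 ± 0.15 (SE, limma adjusted p = 8.23e-06). Tap1, the peptide transporter gene, fell by 1.87 ± 0.12 (SE, limma adjusted p = 1.37e-06), and Irf1, an interferon-regulated factor gene, rose by 0.99 ± 0.09 (SE, limma adjusted p = 1.87e-05). In the Notch list 9 of 18 genes rose and 4 fell. The fringe glycosyltransferase genes Lfng and Mfng fell, with Lfng at 29.6, 27.5 and 27.7 TPM in WT and 0.281, 0.175 and 0.328 TPM in Bmal1-/- libraries, and Mfng listed at 0 in all 3 Bmal1-/- libraries where WT libraries held 3.19, 1.98 and 1.93 TPM. The remaining fringe gene, Rfng, rose by 0.50 ± 0.13 (SE, limma adjusted p = 0.0093) and had -0.05 (limma adjusted p = 0.663) with chromosome and GC medians subtracted. It did not pass when any 1 library other than Bmal1-/- replicate 2 was left out (limma adjusted p of 0.0140 to 0.0374).

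Some of the largest single changes belonged to no list. Renbp, the gene of a renin-binding epimerase on chromosome X, was at 19.7, 19.6 and 19.3 TPM in WT, at 301, 234 and 262 TPM in Bmal1-/- and at 79.2, 78.5 and 67.3 TPM in Clock-/- libraries (log2 fold change against WT 3.69 ± 0.10 SE, limma adjusted p = 5.93e-09). Dio1, which encodes the type 1 deiodinase that activates thyroid hormone, was at 10.7, 7.54 and 9.54 TPM in WT and at 104, 96.7 and 99.8 TPM in Bmal1-/- libraries, with 8.77, 6.35 and 8.41 TPM in Clock-/- libraries (log2 fold change against WT 3.31 ± 0.14 SE, limma adjusted p = 1.08e-07). Folr1, a folate receptor gene, rose by 3.34 ± 0.09 (SE, limma adjusted p = 8.44e-09). S100a4, a calcium-binding protein gene, was at 10.3, 4.38 and 4.37 TPM in WT and at 103, 125 and 109 TPM in Bmal1-/- libraries, a rise of 4.03 ± 0.32 (SE, limma adjusted p = 6.64e-06). For Dio1 and S100a4 the WT and Clock-/- libraries held like levels and the Bmal1-/- libraries stood alone.

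Among abundant genes, Tmsb4x, the thymosin β4 gene whose product binds actin monomers, was at 705, 669 and 789 TPM in WT and at 3111, 3854 and 3451 TPM in Bmal1-/- libraries (log2 fold change 2.26 ± 0.12 SE, limma adjusted p = 4.36e-07). Eef2, the translation elongation factor gene, rose by 0.86 ± 0.09 (SE, limma adjusted p = 3.91e-05), and Cltrn, which encodes collectrin, was at 426, 391 and 359 TPM in WT and at 857, 1289.8 and 1186 TPM in Bmal1-/- libraries (1.48 ± 0.13 SE, limma adjusted p = 1.47e-05). The largest falls outside the lists included Arhgap36, a GTPase-activating protein gene, from 57, 51.5 and 48.5 TPM to 0.742, 0.576 and 0.914 TPM, and Bmyc, a Myc-family gene, from 41.7, 47.7 and 44.7 TPM to 0.861, 0.445 and 1 TPM. The 2 differed in the Clock-/- libraries, which held 1.29, 1.18 and 1.24 TPM of Arhgap36 and 48.1, 42.7 and 42.1 TPM of Bmyc.

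The median change differed between chromosomes. Over the 932 genes tested on chromosome 1 the median log2 fold change was -0.35, with 15 called higher and 134 called lower, and over the 1201 genes of chromosome 11 it was 0.35, with 122 called higher and 56 called lower. Chromosome 15 had a median of -0.25, chromosome 3 of -0.18, chromosome X of -0.15 and chromosome 17 of 0.10. In the 10 windows of 20 Mb on chromosome 1 the medians ran from -0.57 to -0.29, all below 0, whereas on chromosome 3 the window from 40 to 60 Mb had -0.67 and the window from 80 to 100 Mb had 0.03. Medians also rose with GC content, from -0.20 in the fifth of genes with the lowest GC to 0.19 in the fifth with the highest. With both the chromosome and the GC median subtracted, 522 genes were called higher and 1086 lower, and the ER, sterol and glycolysis lists had medians of -0.88, -0.82 and 0.40.

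**Figure D4:**
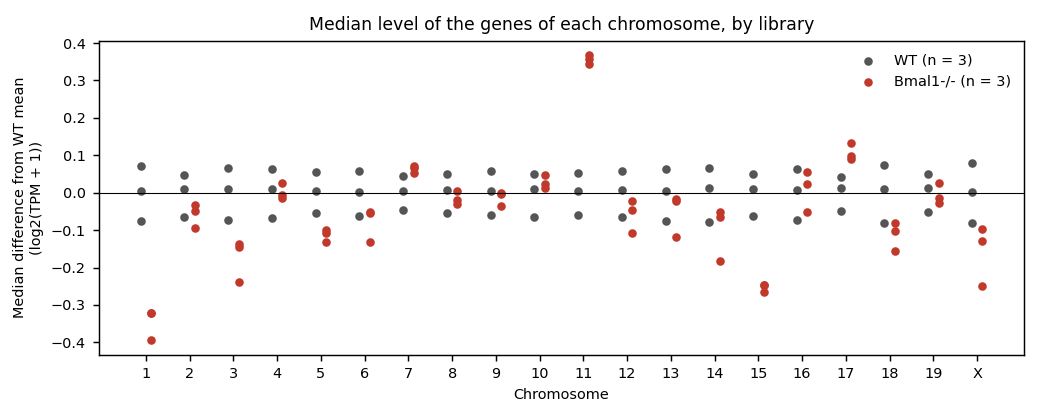
Median difference from the WT mean on the log2(TPM + 1) scale over the tested genes of each chromosome, one point per library for WT and Bmal1-/-. The 3 Bmal1-/- libraries sit together below WT on chromosomes 1 and 15 and above WT on chromosome 11.

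Neighbouring genes were called together in places. There were 9 runs of 4 or more neighbours called in the same direction, 2 higher and 7 lower. On chromosome 15 a run of 5 lower genes held Sstr3, Gm6723, Mfng, Card10 and Lgals2 (chr15:78537008-78855529), and on chromosome 17 a run of 5 higher genes held Frs3, Tfeb, Mdfi, Foxp4 and Nfya (chr17:47689030-48409906). On chromosome 3 a run of 4 lower genes held Serp1, Eif2a, Selenot and Erich6, of which Serp1, an ER membrane protein gene, fell by 1.58 ± 0.07 (SE, limma adjusted p = 2.25e-07). The Serpina1 run of 5 higher genes on chromosome 12 and the H2-Q run of 4 lower genes on chromosome 17 are clusters of near-identical copies.

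Many genes were listed at exactly 0 in the Bmal1-/- libraries. Of 20599 genes, 2549, 2189 and 2691 were at 0 in the Bmal1-/- libraries, against 687, 776 and 905 in WT and 791, 1010 and 911 in Clock-/- libraries. TPM keeps no read counts, but the commonest ratio between the low values of 2 libraries compares what 1 read was worth, and by it the Bmal1-/- libraries had 1.13, 1.45 and 0.965 times the depth of WT replicate 1, where the other WT libraries had 0.930 and 0.870 times. The Bmal1-/- libraries thus held more zeros with no lower depth by this measure than the WT libraries of replicates 2 and 3. With no counts in the table, a listed 0 can come from the quantification and does not show that a gene was not expressed, and the source of the added zeros was not tested. There were 737 genes at 0 in all 3 Bmal1-/- and above 0 in all 3 WT libraries, of which 383 were protein coding and 100 had a WT mean of at least 1 TPM, and 27 genes showed the opposite pattern. Of the 737 genes 504 were above 0 in all 3 Clock-/- libraries.

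The highest of these in WT was Kcnk1, a 2-pore potassium channel gene, at 29.7, 30.6 and 25.8 TPM in WT, listed at 0 in all 3 Bmal1-/- libraries and at 7.65, 6.84 and 8.08 TPM in Clock-/- libraries. Fxyd6, which encodes a regulator of the sodium pump, was at 13.1, 12.2 and 10.5 TPM in WT, listed at 0 in Bmal1-/- and at 3.28, 4.06 and 3.04 TPM in Clock-/- libraries. No fold change is given for these genes, since TPM keeps no count behind a value of 0.

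**Figure D5:**
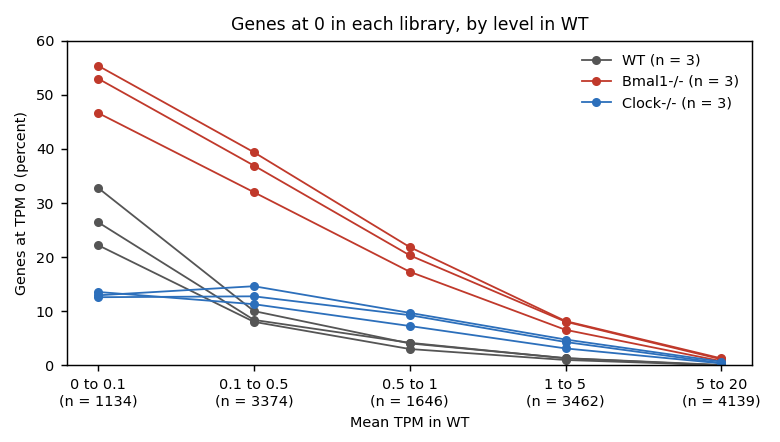
Percent of genes listed at TPM 0 in each library, for genes grouped by their mean TPM in WT. At every level up to 20 TPM the 3 Bmal1-/- libraries hold a larger share of genes at 0 than the WT libraries, from 46.6% to 55.4% against 22.2% to 32.8% in the lowest group.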

How the data were processed

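The RNA-seq values were the TPM of 20599 genes in 9 libraries (3 WT, 3 Bmal1-/- and 3 Clock-/-), which the authors computed and deposited after alignment with STAR 2.5.0 and counting with featureCounts 1.5.3 of polyadenylated, directional paired-end libraries. Each deposited TPM column is scaled to the same total and keeps no read counts, so the depth of a library is unknown apart from the ratio between libraries given with the zeros, and no count model was used. The tables of the authors' own comparison, made with DESeq2 1.22.1 (fold changes and p-values), and the peak lists of the series were not used here. Columns were assigned by the sample labels.

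A gene was kept when 3 or more of the 9 libraries reached 1 TPM, which left 15031 genes. Their log2(TPM + 1) values were modelled by genotype in limma 3.58.1 (R 4.3.3) with moderated variances that follow a trend on the mean level, and all 9 libraries entered so that the genotypes share the estimate of the spread. The Benjamini-Hochberg adjustment covered the 15031 genes, and every adjusted p given is from limma. P-values measure the spread between libraries of 1 clone or culture. Fold changes on this scale understate the change of low genes. The test was tried on simulated data before use. Alternatives changed the pseudocount, the filter, the libraries in the fit, the variance trend, the scaling, the subtraction of chromosome and GC medians and the replicate block, or left out 1 library. Tables were handled with pandas 2.3.3 in Python 3.11.15, sequences were read with samtools 1.23.1 from GRCm38 (mm10) with GENCODE vM21 annotation and from RefSeq promoters, and figures were drawn with matplotlib 3.10.9.

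The comparison, the gene lists and the rules were chosen with earlier results of these data known. The genes to name were the members of the clock lists, the 15 largest rises and 15 largest falls among called, non-overlapping genes whose higher group averaged 20 TPM or more, the 10 largest rises and falls by TPM difference, the 15 genes highest in WT among those at 0 in all Bmal1-/- libraries, the 3 largest changes per list and direction at 5 TPM or more, the genes of the 5 longest runs of neighbours and the cell type markers, and the text gives a choice of these. Some genes that this rule names are not reported here. Other list members were named after their values were seen. Deviations from the group mean correlated at -0.0898, 0.0278 and -0.0832 between WT and Bmal1-/- libraries of the same replicate number, so the numbers do not pair the libraries.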

Additional observations from a re-analysis of the deposited data

How the results depend on the processing

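The counts of called genes stood at 446 to 733 higher and 794 to 1603 lower over the alternatives, against 575 and 1198 as reported. They were 733 and 1603 with 0.1 added to TPM, 667 and 1447 with 0.5, and 446 and 857 with 2. With TPM of at least 5 in 3 of 9 libraries 794 genes were called lower. Leaving out 1 library at a time gave 537 to 612 higher and 1114 to 1260 lower. With the replicate number as a block, 1183 genes were called lower and 575 higher, and the changes that no longer passed were those of Ciart (limma adjusted p = 0.013), Csnk1e, Eed, Gosr1, Nfe2l2 and Rfng. Libraries of the same number did not deviate together. Subtracting GC medians, alone or with chromosome medians, was chosen after seeing the data, and it gave 549 and 1116, or 522 and 1086. With both medians subtracted Srebf1 turned from 0.20 to -0.35 and Rfng from 0.50 to -0.055. The number of cell cycle genes that rose was 11 to 15 when 1 library was left out, against 18 with all, and was 11 without WT replicate 2 or Bmal1-/- replicate 3. Of the 737 genes listed at 0, 100 had a WT mean of at least 1 TPM. When genes averaging under 5 TPM were left out, the chromosome medians were -0.30 on chromosome 1, -0.11 on chromosome 3, 0.43 on chromosome 11 and -0.21 on chromosome 15. Runs of 3 or more neighbours numbered 36, and those of 4 or more 9. Of 190 named genes, 157 kept their side of the threshold in every one of the 20 settings that tested them. Those that passed also kept their direction. Genes that did not pass could change sign, as Abcc8 did from 0.15 to -0.015 with GC medians subtracted. In at least 1 setting 17 genes no longer passed an adjusted p under 0.01 by limma, and 15 genes newly passed it with their sign unchanged, whatever the size of their fold change. Those 15 were Atf6, Canx, Clock, Eif2ak3, Ern1, Ezh2, Kcnj11, Nampt, Pdx1, Pfkp, Rora, Suz12, Tef, Ttr and Myc. Srebf1 also newly passed, with its sign reversed (limma adjusted p = 0.00089 with both medians subtracted). The cause of the changes between settings was not tested. Depth in reads is not known, and values near 0 TPM are the least certain.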

Other observations

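Regulators outside the clock and the β-cell list changed in both directions. Of 45 E-box, ETS and AP-1 factor genes 14 rose and 11 fell, with a median log2 fold change of 0.05. The AP-1 partners Fos and Jun went apart. Fos was at 15.7, 16.9 and 18.1 TPM in WT, at 3.12, 2.79 and 1.68 TPM in Bmal1-/- and at 10.5, 10.1 and 9.79 TPM in Clock-/- libraries (log2 fold change against WT -2.36 ± 0.15 SE, limma adjusted p = 1.74e-06). Jun was at 45.6, 46.2 and 46.9 TPM in WT, at 143, 134 and 141 TPM in Bmal1-/- and at 48.2, 45.8 and 56.3 TPM in Clock-/- libraries (log2 fold change against WT 1.57 ± 0.08 SE, limma adjusted p = 3.67e-07). For both genes the Bmal1-/- libraries overlapped with no other library. Mxi1, which encodes an antagonist of MYC at E-boxes, rose by 1.83 ± 0.12 (SE, limma adjusted p = 1.50e-06), and the MYC gene itself, Myc, had a log2 fold change of -0.27 and did not pass.

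Of 15 genes that β cells keep low (disallowed genes) 3 rose and 6 fell. Nfib, a transcription factor gene, was at 0.191, 0.137 and 0.146 TPM in WT and at 4.94, 5.76 and 5.93 TPM in Bmal1-/- libraries (log2 fold change 2.50 ± 0.13 SE, limma adjusted p = 5.05e-07), and Slc16a1, the lactate and pyruvate transporter gene, fell by 0.78 ± 0.09 (SE, limma adjusted p = 5.51e-05). Of 35 genes of extracellular matrix and adhesion 10 rose and 9 fell, among them the E-cadherin gene Cdh1, which fell by 1.53 ± 0.15 (SE, limma adjusted p = 2.66e-05), and S100a6, which rose from 1.16, 0.499 and 1.47 TPM to 11.4, 6.96 and 8.18 TPM. Of 69 cytosolic ribosomal protein genes 9 rose, 11 fell and 0 were called in either direction. Rpl19, on chromosome 11, rose by 0.60 ± 0.11 (SE, limma adjusted p = 0.00111) and had 0.12 (limma adjusted p = 0.487) with chromosome and GC medians subtracted.

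Of the remaining marker lists, the 2 δ-cell markers in the table summed to 161 to 178 TPM in WT and to 137 to 139.6 TPM in Bmal1-/- libraries, the 7 neuronal markers to 331 to 354 TPM and to 288 to 297 TPM, and the 3 stromal markers to 0.299 to 0.732 TPM and to 0.392 to 0.478 TPM. The PP-cell and ε-cell markers stood at 1.46 TPM or less in every WT and Bmal1-/- library.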
